A study of Mus musculus with 12 samples.

Results

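BMDM, macrophages grown in culture from mouse bone marrow, were compared between 2 ways of moving them out of the soft hydrogel state, a stiffened hydrogel and the cytokine IL-4, in wild-type (WT) cells. The comparison takes the libraries WT stiff 1 and 2 against WT soft+IL-4 1 and 2, that is 4 of the 12 libraries of the series, and the 10690 genes, of 14098 listed, that reached 1 TPM in 2 or more of these 4 libraries. The cells came from male and female C57Bl/6 mice aged 8 to 10 weeks and were differentiated in L929-conditioned medium on low-attachment plastic. They were embedded in a gel of collagen and hyaluronic acid. WT soft+IL-4 libraries come from WT cells in the soft gel with IL-4, whose dose the labels do not give. WT stiff libraries come from WT cells in a gel that was crosslinked by UV light with a photoinitiator 24 h after embedding and held for 48 h more, without IL-4. By the study's methods the stiff gel held more collagen, and stiffening added a photoinitiator and UV light. In these libraries the effect of stiffness cannot be told apart from these. The study reports that the UV exposure left viability and the surface phenotype (CD206 and MHC-II) of the cells unaffected. It also reports that more collagen without crosslinking did not affect the phenotype. Neither control is among the 12 libraries. All cells were released with collagenase (400 U/mL for 1 h). WT soft and the Camkk2-/- (KO) libraries, in the same 3 culture conditions, serve as a reference, with 2 libraries in each of the 6 groups. The study states that these were biological replicates and does not say whether a group's 2 libraries came from different mice. Values are TPM, that is reads per length of the gene scaled to a common total, so levels can be set side by side between genes.

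IL-4 binds its receptor on macrophages and activates STAT6, which switches on genes of alternative activation such as Arg1, Retnla, Chil3 and Mrc1 and restrains many inflammatory genes. Matrix stiffness reaches macrophages through adhesion receptors, ion channels and the actin cytoskeleton, with no receptor for a cytokine required. Both cues have been studied as inducers of a repair-type macrophage, and the comparison asks where the transcriptomes they leave behind differ.

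The stiff libraries lay further from each other than the libraries of any other group. Over the genes tested, the SD of the difference in log2(TPM + 1) was 0.657 between WT stiff 1 and WT stiff 2, and 1006 genes (9.41%) differed at least 2-fold. The libraries of the other 5 groups lay 0.272 to 0.361 apart, and WT soft+IL-4 1 and 2 lay 0.319 apart with 141 genes at least 2-fold different. The closest library to WT stiff 2 was WT soft+IL-4 2, at an SD of 0.177 with 27 genes at least 2-fold different, and both KO soft+IL-4 libraries (0.225 and 0.276) were also closer to it than either KO stiff library. WT stiff 1 held 286 genes at least 2-fold above, and 110 at least 2-fold below, every one of the other 11 libraries, whereas no other library had more than 2 and 8 such genes. For that reason each stiff library is given separately throughout.

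**Figure D1:**
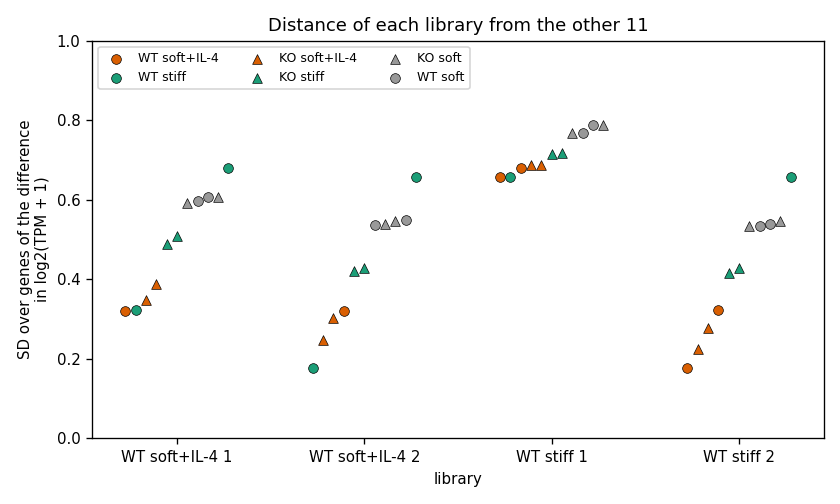
Each point is the SD over 10690 genes of the difference in log2(TPM + 1) between the library named on the horizontal axis and 1 of the other 11, with circles for WT, triangles for KO and colour for the culture condition. WT stiff 1 lies at least 0.657 from every library, while WT stiff 2 lies 0.177 from WT soft+IL-4 2.

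Camkk2, which the KO mice lack, was at 23.3 TPM in WT stiff 1 against 23.7 TPM in WT stiff 2 and at 30.5 and 29.8 TPM with IL-4. Its level goes against the label in 3 libraries outside these 4 (WT soft 2, KO soft 1 and KO stiff 1). Ifi202b, an interferon-inducible gene of a DNA-sensing family, had one of the largest differences shared by both stiff libraries, at 34.9 TPM in WT stiff 1 against 28.9 TPM in WT stiff 2 and at 2.15 and 2.03 TPM with IL-4. The stiff libraries were the only ones at such a level. Ifi202b was between 67.7 and 82.5 TPM in WT soft 2, KO soft 2, both KO soft+IL-4 libraries and KO stiff 2, where Camkk2 was between 8.54 and 11.7 TPM. Ifi202b was at 1.34 TPM or less in WT soft 1, KO soft 1 and KO stiff 1, where Camkk2 was between 37.7 and 46.6 TPM. Both stiff libraries thus lay between those sets of libraries in Camkk2 as well as in Ifi202b. Both WT soft+IL-4 libraries also lay between them in Camkk2, at 30.5 and 29.8 TPM, but in Ifi202b they were near the low set. Whether samples were mixed or exchanged was not tested, and each value below is that of the library as labelled.

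The macrophage markers were present in all 4 libraries, with a summed level of 25400 and 25800 TPM with IL-4 and of 24000 TPM in WT stiff 1 against 25000 TPM in WT stiff 2 over 10 markers. Most of this sum was Lyz2, at 20970 and 21250 TPM with IL-4 and at 19080 TPM in WT stiff 1 against 20500 TPM in WT stiff 2. The sum thus says little about the other markers. None of the markers fixed for T and NK cells or for fibroblasts passed the filter. The neutrophil list, with 4 members tested, summed to 141 and 136 TPM with IL-4 and to 223 TPM in WT stiff 1 against 147 TPM in WT stiff 2. The monocyte list, with 9 members tested, summed to 2060 and 2040 TPM with IL-4 and to 8120 TPM in WT stiff 1 against 1800 TPM in WT stiff 2, most of it Chil3, which IL-4 itself induces. Whether cells of another kind had a part in the differences was not tested. In bulk RNA, fewer cells of a type and less RNA per cell cannot be told apart.

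With both stiff libraries as a group, no gene passed the test against IL-4. A gene was called where its Benjamini-Hochberg adjusted p from limma, over all genes tested, was below 0.05 and the groups differed by 1 or more in log2(TPM + 1). By this rule 0 genes (0%) were called, with 534 genes at an unadjusted p under 0.05 and a smallest adjusted p of 0.586. In size, 187 genes were on average at least 2-fold higher in the stiff libraries and 61 at least 2-fold lower. The stiff and IL-4 libraries did not overlap in 3134 genes (29.3%), of which 76 were at least 2-fold higher and 22 at least 2-fold lower on average. Of all orders of 2 against 2 libraries 33.3% do not overlap, so the count of 3134 is not a sign of a shared difference. With 2 libraries against 2, the smallest p that an exact permutation test allows for a gene is 0.333. For comparison, IL-4 against the soft gel gave 178 genes higher (1.67%) and 228 lower (2.13%), and the stiff gel against the soft gel gave 419 genes (3.92%) in either direction.

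The picture was different for each stiff library alone. Fitted without WT stiff 2, the model called 594 genes higher (5.56%) and 285 lower (2.67%) in WT stiff 1 than in the IL-4 libraries. In such a fit the lone library is assumed to vary as the libraries of the other groups do, so the test compares WT stiff 1, not the stiff gel, with IL-4. Of the genes called higher, 550 lay above all of the other 11 libraries, and of those called lower, 241 lay below all of them. Over all 10690 genes tested, 5296 lay outside the other 11 libraries in WT stiff 1, in either direction. The called genes were picked by the distance of WT stiff 1 from IL-4, so their counts are partly set by that choice. Fitted without WT stiff 1, the model called 0 genes (0%) in WT stiff 2, with 90 genes at an unadjusted p under 0.05. Of the genes higher in WT stiff 1, 2 were also at least 2-fold higher in WT stiff 2, and of those lower, 2 were also at least 2-fold lower. The median difference of WT stiff 2 from IL-4 was −0.02 in both sets. The shares called over all genes are the background for the list counts given below. The median over all genes was 0.109 in WT stiff 1 against IL-4. Scaling the libraries by the median of ratios moved this median to about 0 (−0.0053) and the calls to 467 higher and 373 lower.

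**Figure D2:**
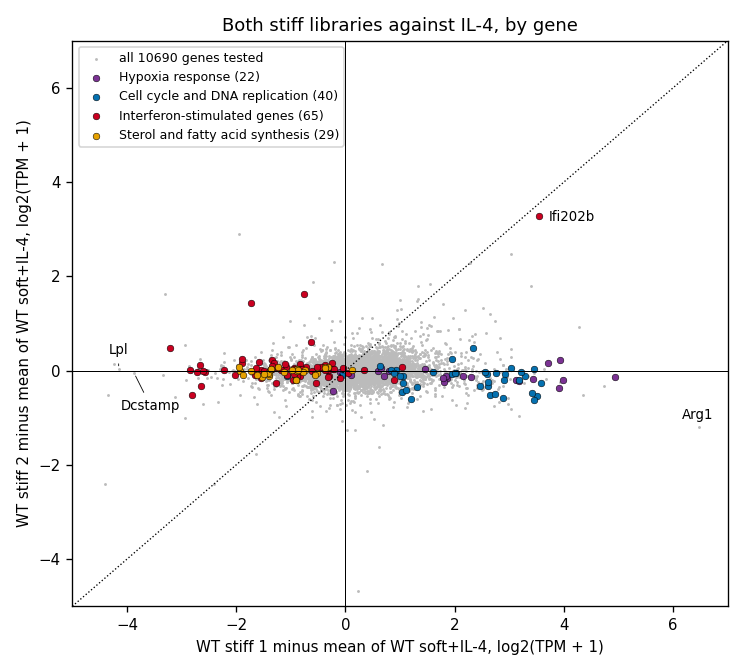
Each point is 1 of 10690 genes, with the difference of WT stiff 1 from the mean of both WT soft+IL-4 libraries on the horizontal axis and that of WT stiff 2 on the vertical axis, both in log2(TPM + 1). The coloured lists spread along the horizontal axis and, except for the interferon-stimulated genes Ifi202b, Ifi44l and Ifi44 at 3.27, 1.63 and 1.43, stay within 1 of 0 on the vertical one. Both axes share the IL-4 libraries, and the dotted line marks equal differences.

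Most genes of a list for the response to IL-4 and STAT6 were on in both stiff libraries. The list was written by hand with earlier results of these data known, so its counts against the soft libraries may be partly set by that choice. Of 39 genes of the IL-4 and STAT6 list tested, 31 were called higher in the IL-4 than in the soft libraries and 0 lower. At least 2-fold above both soft libraries were 31 of the 39 in WT soft+IL-4 1 (2.12% of all genes), 30 in WT soft+IL-4 2 (1.84%), 29 in WT stiff 1 (5.48%) and 29 in WT stiff 2 (1.66%). WT stiff 2 repeated the IL-4 level of these genes within 0.532 on the log2 scale. WT stiff 1 departed from it in both directions, with 11 of the 39 called higher, 4 lower and a median difference of 0.17.

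Among the list members higher in WT stiff 1 were secreted and lectin-type products of alternative activation. Retnla, a secreted resistin-like protein, was at 424 and 223 TPM in WT soft, 7138 and 7096 TPM with IL-4, and 21525 TPM in WT stiff 1 against 7919 TPM in WT stiff 2. WT stiff 1 was above both IL-4 libraries by 1.60 on the log2 scale (SE 0.366, limma adjusted p = 0.0125), and WT stiff 2 was close to them. Mgl2, a C-type lectin, was at 295 and 282 TPM with IL-4 and at 758 TPM in WT stiff 1 against 287 TPM in WT stiff 2 (log2 fold change of WT stiff 1 1.39, SE 0.164, limma adjusted p = 0.000398). Its neighbour in function Clec10a went from 88.3 and 85.0 TPM with IL-4 to 221 and 89.1 TPM. The fibronectin gene Fn1 was at 82.9 and 75.7 TPM with IL-4 and at 349 TPM in WT stiff 1 against 73.3 TPM in WT stiff 2 (2.13, SE 0.163, limma adjusted p = 3.47e-05). Tgm2, a transglutaminase that crosslinks proteins, and the transcription factor gene Klf4 were also higher in WT stiff 1, by 1.63 and 1.35. In each of these genes WT stiff 1 stood alone and the other stiff library lay with IL-4.

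Other members of this group gave less firm values. Mrc1, the mannose receptor CD206, was at 180 and 195 TPM with IL-4 and at 436 TPM in WT stiff 1 against 198 TPM in WT stiff 2, which came to 1.22 on the log2 scale (SE 0.306, limma adjusted p = 0.0184) that was no longer past the threshold without WT soft+IL-4 1 (1.16, adjusted p = 0.0737). The eosinophil-type ribonuclease gene Ear2, whose reads may be split with near-identical copies, was at 221 and 231 TPM with IL-4 and at 1202 and 210 TPM (2.40, SE 0.587, limma adjusted p = 0.0164). Its adjusted p was 0.0613 without WT soft+IL-4 1 and 0.0510 without WT soft+IL-4 2. Chil3, a chitinase-like lectin with a close copy, was at 1926 and 1911 TPM with IL-4 and at 7681 TPM in WT stiff 1 against 1669 TPM in WT stiff 2, and its log2 difference of 2.00 in WT stiff 1 did not pass the test (limma adjusted p = 0.0561). It passed with only the 6 WT libraries in the model (adjusted p = 0.0475) and without the 3 libraries whose Camkk2 goes against the label (adjusted p = 1.48e-05).

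The 4 list members lower in WT stiff 1 were Ccl24, Ccl22, Itgax and Pparg. The eosinophil-attracting chemokine gene Ccl24 was at 7.94 and 8.92 TPM in WT soft, 115 and 116 TPM with IL-4, and 27.1 TPM in WT stiff 1 against 135 TPM in WT stiff 2 (−2.05, SE 0.244, limma adjusted p = 0.000427). Itgax, which encodes the integrin CD11c, was at 141 and 125 TPM in WT soft, 622 and 640 TPM with IL-4 and 171 TPM in WT stiff 1 against 627 TPM in WT stiff 2 (−1.88, SE 0.0833, limma adjusted p = 4.69e-06). WT stiff 1 thus held Itgax near its soft level and Ccl24 between the soft and the IL-4 levels. The lipid-sensing nuclear receptor gene Pparg was at 110 and 112 TPM with IL-4 and at 49.5 and 101 TPM, and the chemokine gene Ccl22 at 120 and 122 TPM with IL-4 and 55.7 and 116 TPM.

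A further set of IL-4 genes was not called in either stiff library. Ccl17, a T cell chemokine gene, was at 32.9 and 33.3 TPM with IL-4 and at 37.6 TPM in WT stiff 1 against 36.3 TPM in WT stiff 2. The integrin gene Itgb3 was at 8.42 and 9.48 TPM with IL-4 and at 10.2 TPM in WT stiff 1 against 9.92 TPM in WT stiff 2. Il4i1, an amino acid oxidase, was at 298 and 280 TPM with IL-4 and at 232 TPM in WT stiff 1 against 304 TPM in WT stiff 2. Irf4, the transcription factor that acts downstream of STAT6, was at 27.6 and 30.2 TPM with IL-4 and at 24.2 TPM in WT stiff 1 against 29.4 TPM in WT stiff 2. The log2 differences of these 4 genes in WT stiff 1 ran from −0.31 for Il4i1 to 0.18 for Ccl17.

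**Figure D3:**
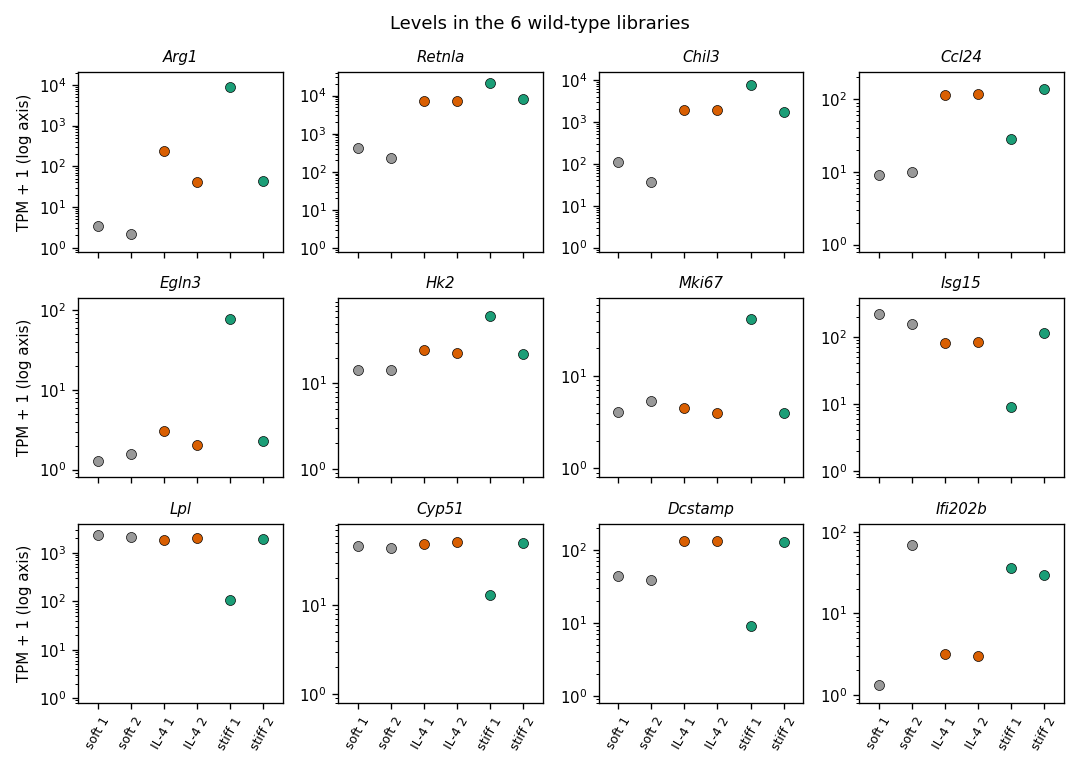
TPM + 1 on a logarithmic axis for 12 genes in the 6 WT libraries, 1 point per library, grey for soft, orange for soft+IL-4 and green for stiff. Except in Ifi202b, WT stiff 1 lies apart from both IL-4 libraries. In these genes WT stiff 2 lies with the IL-4 libraries or, for Arg1, with the lower of them and, for Isg15, above them.

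The largest single difference was that of Arg1, arginase 1, which splits arginine into ornithine and urea and is a standard marker of the IL-4 state. It was at 2.43 and 1.11 TPM in WT soft, 242 and 40.3 TPM with IL-4, and 8850 TPM in WT stiff 1 against 42.6 TPM in WT stiff 2. The IL-4 libraries themselves were far apart, and their difference from soft did not pass the test (5.22, limma adjusted p = 0.122). WT stiff 2 sat at the lower of them, and WT stiff 1 exceeded both (log2 fold change 6.46, SE 0.956, limma adjusted p = 0.00142). Other genes of arginine use moved in WT stiff 1 too. Slc7a2, the cationic amino acid transporter that imports arginine, was at 39.5 and 37.1 TPM with IL-4 and at 144 TPM in WT stiff 1 against 32.6 TPM in WT stiff 2 (1.88, SE 0.382, limma adjusted p = 0.00722). Ass1, which makes the precursor from which arginine is rebuilt, was at 25.4 and 21.9 TPM with IL-4 and at 2.34 and 23.8 TPM (−2.88, SE 0.37, limma adjusted p = 0.000646). Nos2, the nitric oxide synthase that competes for arginine, stayed low at 1.99 and 1.22 TPM with IL-4 and 4.64 TPM in WT stiff 1 against 1.15 TPM in WT stiff 2, and its call (adjusted p = 0.0187) was lost without WT soft+IL-4 2 (log2 fold change 0.92, adjusted p = 0.0675). Of the 16 genes of arginine and polyamine metabolism tested, 3 were called higher and 2 lower in WT stiff 1, with a median of −0.0574.

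Genes of the hypoxia response were higher in WT stiff 1 than with IL-4. These are targets of the HIF factors, which bind a short element with the core ACGTG or GCGTG and drive glucose use, vessel growth and mitochondrial removal when oxygen is low. Of 22 genes tested, 15 were called higher and 0 lower in WT stiff 1, and the median log2 difference was 1.85 against 0.109 over all genes. In WT stiff 2 the median was −0.122, and no member was at least 2-fold above both soft libraries there or in either IL-4 library. In WT stiff 1, 15 members were (5.48% of all genes). The promoters of the 5 members with the largest differences are printed because the HIF core can be read in them. They run from 250 bases before to 50 after the start of the gene, in RefSeq on GRCm38.p6, 5′ to 3′ on the strand of the gene, and capitals mark ACGTG or GCGTG on either strand, overlapping matches included. Ero1l is listed in RefSeq as Ero1a.
Egln3, chr12:54203825-54204124, minus strand: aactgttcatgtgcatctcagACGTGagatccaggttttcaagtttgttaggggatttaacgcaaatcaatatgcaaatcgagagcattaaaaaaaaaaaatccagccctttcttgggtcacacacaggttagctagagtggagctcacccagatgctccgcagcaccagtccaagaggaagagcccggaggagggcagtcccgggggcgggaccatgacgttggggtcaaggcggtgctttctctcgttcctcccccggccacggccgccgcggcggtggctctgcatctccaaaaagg
Ero1l, chr14:45318523-45318822, minus strand: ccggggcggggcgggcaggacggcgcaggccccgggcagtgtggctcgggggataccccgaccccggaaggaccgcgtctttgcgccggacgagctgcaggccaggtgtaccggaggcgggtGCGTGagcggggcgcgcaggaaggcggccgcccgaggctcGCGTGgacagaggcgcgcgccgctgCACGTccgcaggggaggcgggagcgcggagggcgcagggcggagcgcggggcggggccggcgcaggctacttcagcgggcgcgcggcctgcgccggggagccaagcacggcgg
Ankrd37, chr8:45999801-46000100, minus strand: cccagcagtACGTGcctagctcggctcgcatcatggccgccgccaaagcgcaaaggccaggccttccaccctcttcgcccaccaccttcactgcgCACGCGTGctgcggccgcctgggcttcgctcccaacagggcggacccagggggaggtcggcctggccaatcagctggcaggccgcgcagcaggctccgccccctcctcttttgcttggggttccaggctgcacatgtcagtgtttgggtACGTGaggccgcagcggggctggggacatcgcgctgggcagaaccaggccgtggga
Bnip3, chr7:138909457-138909756, minus strand: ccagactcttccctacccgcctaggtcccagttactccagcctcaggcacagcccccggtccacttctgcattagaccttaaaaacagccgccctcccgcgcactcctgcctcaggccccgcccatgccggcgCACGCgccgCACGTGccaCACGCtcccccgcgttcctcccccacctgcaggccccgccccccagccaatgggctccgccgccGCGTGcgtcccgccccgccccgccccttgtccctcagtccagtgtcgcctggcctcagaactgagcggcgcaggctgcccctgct
Hilpda, chr6:29272238-29272537, plus strand: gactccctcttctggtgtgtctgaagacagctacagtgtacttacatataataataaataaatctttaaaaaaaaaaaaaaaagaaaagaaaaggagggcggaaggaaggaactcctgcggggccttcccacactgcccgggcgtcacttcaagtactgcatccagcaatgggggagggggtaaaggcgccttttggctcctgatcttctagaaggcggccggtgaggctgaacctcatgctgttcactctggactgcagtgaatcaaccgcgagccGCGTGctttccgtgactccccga
Ankrd37 held 4 matches, Bnip3 5, Ero1l 3, and Egln3 and Hilpda 1 each. Of the 20 tested list members with a promoter in the table, 18 held the core (90%), and so did 12 of the 14 called higher (85.7%). The core is common, since it was found in 64.6% of the promoters of all genes tested that had an entry (8671 genes) and in 43.8% of all 27025 promoters. Of the genes called higher in WT stiff 1, 62.5% held it. A match is a description of the letters and not evidence of binding.

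Egln3, an oxygen sensor that hydroxylates HIF and is itself induced by it, was at 2.06 and 1.05 TPM with IL-4 and at 75.7 TPM in WT stiff 1 against 1.27 TPM in WT stiff 2 (4.94, SE 0.351, limma adjusted p = 2.46e-05). Bnip3, which marks mitochondria for removal, was at 26.6 and 19.4 TPM with IL-4 and at 357 and 17.4 TPM (3.92, SE 0.189, limma adjusted p = 5.16e-06). Ero1l, an oxidase of protein folding, was at 22.9 and 15.7 TPM with IL-4 and at 316 and 16.4 TPM, and Ankrd37, an ankyrin repeat protein, at 9.86 and 14.7 TPM and at 198 and 14.3 TPM. In all of these WT stiff 1 was the only library of the 4 at a high level. Vegfa, the growth factor of blood vessels, was at 46.5 and 66.0 TPM in WT soft, 28 and 18.6 TPM with IL-4 and 207 TPM in WT stiff 1 against 19.9 TPM in WT stiff 2 (3.13, SE 0.295, limma adjusted p = 0.000112). Ndrg1, a stress-induced protein, showed the same order, at 46.9 and 47.4 TPM in WT soft, 22.4 and 17.6 TPM with IL-4 and 187 TPM in WT stiff 1 against 16.9 TPM in WT stiff 2. Ddit4, an inhibitor of mTORC1, was between 1.32 and 1.94 TPM in both soft, both IL-4 and the second stiff library and at 27.4 TPM in WT stiff 1. Hilpda, a lipid droplet protein that slows lipolysis, was at 14.1 and 11.1 TPM with IL-4 and at 177 TPM in WT stiff 1 against 14.2 TPM in WT stiff 2.

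Glycolytic genes, many of them HIF targets, went the same way. Of 24 genes tested, 14 were called higher and 1 lower in WT stiff 1, with a median of 1.24, and the median in WT stiff 2 was −0.0769. Pgk1, phosphoglycerate kinase, was at 559 and 527 TPM with IL-4 and at 1908 TPM in WT stiff 1 against 499 TPM in WT stiff 2 (1.81, SE 0.0661, limma adjusted p = 2.15e-06). Ldha, which turns pyruvate into lactate, was at 757 and 762 TPM with IL-4 and at 1895 and 726 TPM (1.32, SE 0.0753, limma adjusted p = 8.33e-06). The glucose transporter gene Slc2a1 was at 51.6 and 47.7 TPM with IL-4 and at 224 and 45.8 TPM, and the hexokinase gene Hk2 at 23.6 and 21.5 TPM and at 60.7 and 21.2 TPM. The exception was Hk3, the hexokinase typical of myeloid cells, at 323 and 319 TPM with IL-4 and 145 TPM in WT stiff 1 against 314 TPM in WT stiff 2 (−1.15, SE 0.194, limma adjusted p = 0.0029). Among 53 genes of oxidative phosphorylation, 0 were called higher and 1, the cytochrome c gene Cycs, lower, with a median of −0.31 in WT stiff 1 and 0.016 in WT stiff 2.

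Cell cycle genes had the highest median of the lists shown here in WT stiff 1. Of 40 genes tested, 31 were called higher and 1 lower, with a median log2 difference of 2.40, while the median in WT stiff 2 was −0.11. Mki67, the proliferation marker Ki-67, was at 3.12 and 4.44 TPM in WT soft, 3.57 and 2.98 TPM with IL-4 and 40.8 TPM in WT stiff 1 against 2.94 TPM in WT stiff 2 (3.29, SE 0.246, limma adjusted p = 3.06e-05). Ccna2, cyclin A, was at 3.99 and 3.14 TPM with IL-4 and at 53.6 and 2.77 TPM (3.59, SE 0.234, limma adjusted p = 1.57e-05). Top2a, topoisomerase II, was at 59.0 TPM in WT stiff 1 against 8.76 and 5.80 TPM with IL-4. Mcm5, of the replicative helicase, was at 10.4 and 8.55 TPM with IL-4 and at 24.9 TPM in WT stiff 1 against 7.25 TPM in WT stiff 2. In WT stiff 2 no tested gene of the list was above IL-4 by more than 0.479 on the log2 scale. Pcna, the sliding clamp of DNA polymerase, was the member that was lower, at 575 and 626 TPM with IL-4 and at 287 TPM in WT stiff 1 against 556 TPM in WT stiff 2 (−1.06, SE 0.192, limma adjusted p = 0.00415). Lmnb1, the nuclear lamina protein lamin B1, was at 3.70 and 3.73 TPM with IL-4 and at 37.3 TPM in WT stiff 1 against 5.45 TPM in WT stiff 2.

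Many cell cycle promoters carry a short element with the letters TTTGAA or TTCGAA, through which their genes are held down in resting cells. The Ccnb2 promoter is printed as the example, read as above, with these letters on either strand in capitals.
Ccnb2, chr9:70421505-70421804, minus strand: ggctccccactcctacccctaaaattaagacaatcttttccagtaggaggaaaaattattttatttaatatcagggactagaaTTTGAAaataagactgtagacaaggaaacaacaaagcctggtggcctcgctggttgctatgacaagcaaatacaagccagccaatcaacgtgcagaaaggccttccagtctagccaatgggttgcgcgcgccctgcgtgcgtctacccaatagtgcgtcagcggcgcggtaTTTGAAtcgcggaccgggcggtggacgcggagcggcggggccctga
Ccnb2, cyclin B2, was at 6.05 and 3.08 TPM with IL-4 and at 59.8 TPM in WT stiff 1 against 2.71 TPM in WT stiff 2 (3.50, SE 0.365, limma adjusted p = 0.000201), and its promoter held 2 matches. The letters were found in 15 of 32 promoters of the list (46.9%), in 13.9% of the promoters of all genes tested, in 25% of those of the genes called higher in WT stiff 1 and in 19.4% of all promoters in the table.

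Interferon-stimulated genes were lower in WT stiff 1. These genes are switched on by type I interferon and act against viruses. Of 65 genes tested, 0 were called higher and 28 lower, with a median of −0.935, against a median of 0.0241 in WT stiff 2. Below both soft libraries by at least 2-fold were 17 members in WT soft+IL-4 1 (2.63% of all genes), 14 in WT soft+IL-4 2 (1.97%), 39 in WT stiff 1 (3.41%) and 14 in WT stiff 2 (2.08%). Isg15, a ubiquitin-like modifier, was at 213 and 153 TPM in WT soft, 80.5 and 82.3 TPM with IL-4 and 7.88 TPM in WT stiff 1 against 113 TPM in WT stiff 2 (−3.21, SE 0.254, limma adjusted p = 4.02e-05). Rtp4, a receptor chaperone, was at 61.1 and 73.8 TPM with IL-4 and at 8.50 and 67.7 TPM (−2.84, SE 0.172, limma adjusted p = 1.13e-05). Irf7, the factor that amplifies the interferon response, was at 171 and 202 TPM in WT soft, 43.6 and 42.7 TPM with IL-4 and 10.9 TPM in WT stiff 1 against 51.6 TPM in WT stiff 2. WT stiff 1 was the lowest of the 6 WT libraries in each of these, while WT stiff 2 was above the IL-4 libraries in Isg15 and Irf7 and between them in Rtp4. The list also holds Ifi202b, which was higher in both stiff libraries and not called. Ifit3, whose reads may be shared with a close copy, was at 11.8 and 12.5 TPM with IL-4 and at 1.21 and 11.9 TPM.

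Inflammatory genes differed in both directions in WT stiff 1. Tnf, the tumour necrosis factor gene, was at 28.4 and 24.6 TPM in WT soft, 12.1 and 11.9 TPM with IL-4 and 1.01 TPM in WT stiff 1 against 10.7 TPM in WT stiff 2 (−2.70, SE 0.137, limma adjusted p = 6.32e-06). The chemokine genes Ccl3 and Ccl4, which call monocytes and T cells, were at 36.8 and 48.0 TPM and at 45.6 and 44.4 TPM with IL-4, and fell to 6.50 TPM for Ccl3 and 8.37 TPM for Ccl4 in WT stiff 1. In WT stiff 2 the tested genes of the chemokine and receptor list lay between −0.588 and 0.534 from IL-4 on the log2 scale. Cxcl10, an interferon-induced chemokine gene, was at 8.64 and 4.10 TPM with IL-4, was listed at 0 in WT stiff 1 and was at 3.90 TPM in WT stiff 2. Cd14, the co-receptor for lipopolysaccharide, went the other way, at 734 and 827 TPM in WT soft, 161 and 152 TPM with IL-4 and 412 TPM in WT stiff 1 against 151 TPM in WT stiff 2 (1.39, SE 0.0932, limma adjusted p = 1.85e-05). So did Nlrp3, a sensor of the inflammasome, at 4.49 and 5.43 TPM with IL-4 and 12.2 TPM in WT stiff 1 against 5.05 TPM in WT stiff 2 (1.15, SE 0.208, limma adjusted p = 0.00417), and the cytokine gene Tnfsf9, at 3.10 and 3.48 TPM with IL-4 and 9.91 TPM in WT stiff 1 against 4.12 TPM in WT stiff 2 (1.35, SE 0.333, limma adjusted p = 0.017). The call of Tnfsf9 was lost without WT soft+IL-4 1 (1.28, adjusted p = 0.0676). Over the lists, 3 of 26 genes of Toll-like receptors and inflammatory cytokines were called higher and 4 lower in WT stiff 1, and 2 of 28 chemokine and receptor genes higher and 5 lower.

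Sterol and fatty acid synthesis was lower in WT stiff 1. Its genes are controlled by the SREBP factors, which respond to falling membrane sterol. Of 29 genes tested, 0 were called higher and 14 lower, with a median of −0.97, while the median of WT stiff 2 was −0.00484. Cyp51, a demethylase of the cholesterol pathway, was at 45.5 and 42.9 TPM in WT soft, 47.3 and 50.1 TPM with IL-4 and 12 TPM in WT stiff 1 against 48.5 TPM in WT stiff 2 (−1.93, SE 0.0927, limma adjusted p = 5.16e-06). Scd1, which desaturates fatty acids, was at 16.3 and 16.7 TPM with IL-4 and at 3.54 and 17.4 TPM, and Hmgcs1, an early enzyme of the sterol pathway, at 62.8 and 66.6 TPM and at 26.8 and 67.7 TPM. The fatty acid synthase gene Fasn was at 23.7 and 20.6 TPM with IL-4 and at 7.20 and 20.9 TPM. In each IL-4 library and in WT stiff 2, 1 member of the list was at least 2-fold above both soft libraries and none was 2-fold below. In WT stiff 1, 10 members were 2-fold below (3.41% of all genes).

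Lpl, lipoprotein lipase, which frees fatty acids from circulating lipoproteins, had the smallest adjusted p of all. It was at 2279 and 2070 TPM in WT soft, 1829 and 1988 TPM with IL-4 and 106 TPM in WT stiff 1 against 1947 TPM in WT stiff 2 (−4.15, SE 0.0783, limma adjusted p = 1.81e-08). The 5 other WT libraries thus lay between 1829 and 2279 TPM, far above WT stiff 1. Of 22 genes of lipid uptake, storage and efflux tested, 1 (Hilpda) was called higher and 4 lower in WT stiff 1.

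Genes of the NRF2 response to oxidants were lower in WT stiff 1 as well, with 1 of 27 called higher, 7 lower and a median of −0.669, against 0.0181 in WT stiff 2. Prdx1, a peroxide reductase, was at 2795 and 3095 TPM in WT soft, 2751 and 2974 TPM with IL-4 and 589 TPM in WT stiff 1 against 3110 TPM in WT stiff 2 (−2.28, SE 0.158, limma adjusted p = 2.18e-05). Nqo1, a quinone reductase, was at 16.6 and 18.7 TPM with IL-4 and at 2.99 and 20.0 TPM, and Srxn1, which restores oxidised peroxiredoxins, at 119 and 132 TPM and at 44.0 and 139 TPM. The member that was higher was the metallothionein gene Mt2, at 20.0 and 16.8 TPM with IL-4 and 96.2 TPM in WT stiff 1 against 22.3 TPM in WT stiff 2 (2.33, limma adjusted p = 0.0204), and its adjusted p was 0.0582 without WT soft+IL-4 1 and 0.0711 without WT soft+IL-4 2.

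Genes that read or remodel the matrix gave mixed values, and their counts were not tested against the shares called over all genes. Of 28 genes of matrix proteins and proteases tested, 7 were called higher and 2 lower in WT stiff 1 (median 0.382). Thbs1, the matrix protein thrombospondin 1, was at 7.39 and 6.50 TPM in WT soft, 3.19 and 1.4 TPM with IL-4 and 63.8 TPM in WT stiff 1 against 1.22 TPM in WT stiff 2 (4.35, SE 0.293, limma adjusted p = 1.89e-05). The metalloproteinase gene Mmp27 was at 3.57 and 3.53 TPM with IL-4 and at 20.6 and 3.69 TPM. Plau, the urokinase that activates plasmin, was at 57.4 and 61.9 TPM with IL-4 and at 8.55 and 70.4 TPM (−2.67, SE 0.17, limma adjusted p = 1.41e-05), and Mmp19, a further metalloproteinase gene, at 96.1 and 99.3 TPM and at 44.4 and 98.4 TPM. Among 35 genes of integrins, actin and adhesion, 5 were called higher and 2 lower (median 0.0125). Of the lists not described here, MHC class II presentation (14 genes tested), p53 targets (22), the unfolded protein and integrated stress response (30), heat shock proteins (13), immediate early genes (23), efferocytosis and complement (25), Fc receptors (26), the lysosome (30), iron handling (16), growth factors (15), purinergic receptors (10) and macrophage transcription factors (34) had between 0 and 4 members called in each direction.

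The list for mechanosensing and YAP signalling held 29 genes. Yap1, Wwtr1, Tead1 and the YAP targets Cyr61, Ctgf, Ankrd1 and Amotl2 could not be tested, so the list says little on YAP signalling itself. Of the 18 genes tested, 0 were called in either stiff library, with a median of 0.0302 in WT stiff 1 and −0.0589 in WT stiff 2. The 4 with the highest levels were Akt1, Akt2, Camk1 and Trpv2. Akt1, a kinase of growth and survival signals, was at 206 and 189 TPM with IL-4 and at 179.1 TPM in WT stiff 1 against 179.5 TPM in WT stiff 2, and Akt2, its close relative, at 77.3 and 76.1 TPM and at 72.5 and 76.2 TPM. Camk1, a calmodulin-dependent kinase and substrate of CaMKK2, was at 134 and 120 TPM with IL-4 and at 130 and 113 TPM, and the cation channel gene Trpv2 at 83.3 and 77.2 TPM and at 68.4 and 74.5 TPM. Between soft and IL-4, by contrast, Camk1 went from 203 and 213 TPM to these lower values (−0.71, limma adjusted p = 0.00184), less than 2-fold.

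Dcstamp and Ocstamp were among the 10 largest differences on the low side in WT stiff 1. Dcstamp, a membrane protein required for the fusion of macrophages, was at 43.4 and 37.6 TPM in WT soft, 133 and 131 TPM with IL-4 and 8.10 TPM in WT stiff 1 against 127 TPM in WT stiff 2 (−3.87, SE 0.148, limma adjusted p = 2.5e-06). Ocstamp, its partner, was at 4.83 and 4.37 TPM in WT soft, 101 and 97.5 TPM with IL-4 and 8.91 TPM in WT stiff 1 against 93.6 TPM in WT stiff 2 (−3.34, SE 0.174, limma adjusted p = 6.53e-06). In WT stiff 2 both genes were at the IL-4 level. The other genes among the 10 largest differences in each direction were Tppp3, Rgcc and Id3 on the high side, at 134, 75 and 88.1 TPM in WT stiff 1 and at most 8.26 TPM in the IL-4 libraries and WT stiff 2, and Mt3, Npas4 and Efr3b on the low side, at 0, 0.120 and 0.938 TPM in WT stiff 1 and at least 6.44 TPM in those libraries. Rn4.5s, a small repeat-derived RNA that poly-A selection recovers unevenly, was at 16.2 and 25.2 TPM with IL-4 and at 0 TPM in WT stiff 1 against 3.00 TPM in WT stiff 2, and its call in WT stiff 1 (limma adjusted p = 0.0467) was lost without WT soft+IL-4 1 (0.104) and without WT soft+IL-4 2 (0.136).

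**Figure D4:**
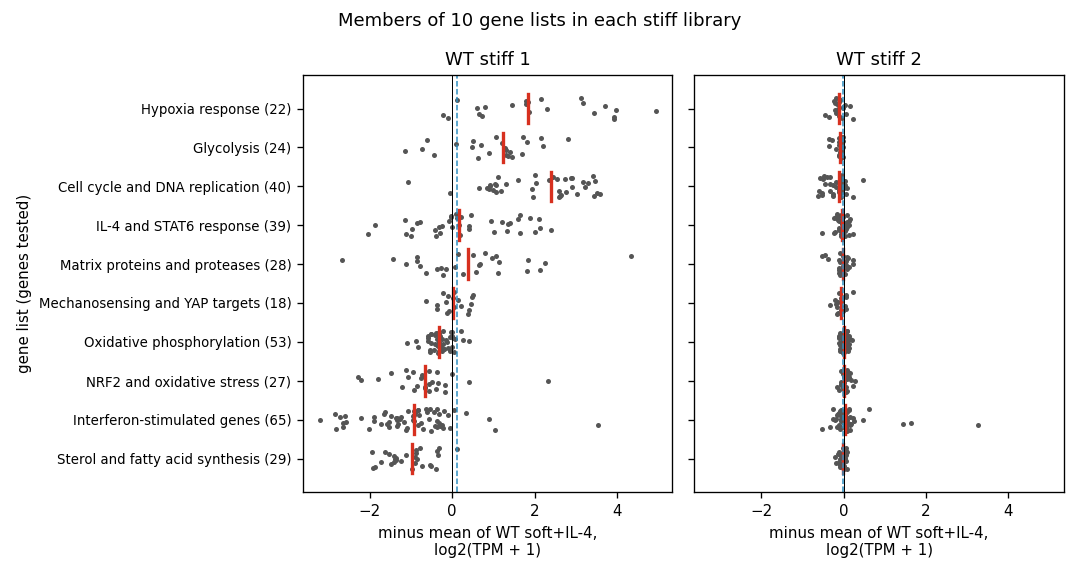
Each point is a gene of the list named at the left, at its difference from the mean of both WT soft+IL-4 libraries in log2(TPM + 1), for WT stiff 1 and WT stiff 2, with a red bar at the median of the list and a dashed line at the median of all genes. In WT stiff 1 the list medians run from −0.97 to 2.40, and in WT stiff 2 they all lie close to 0.

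What the stiff libraries had in common against IL-4 was small. By size, among uncalled genes with a mean of at least 10 TPM over the 4 libraries and no overlap between the groups, Ifi202b, H2-Q9, Hilpda, 2310010J17Rik, Lmnb1 and 5730408K05Rik were the 6 highest and Rn4.5s, Dcstamp, Ocstamp, Gbp2, Cmbl and Gm7367 the 6 lowest. For Hilpda, Lmnb1, Dcstamp, Ocstamp, Gbp2 and Cmbl, the difference rested on WT stiff 1, with WT stiff 2 within 0.45 of IL-4 on the log2 scale. H2-Q9, a class I gene with near-identical copies, was listed at 0 and at 7.59 TPM with IL-4 and was at 29.7 TPM in WT stiff 1 against 9.12 TPM in WT stiff 2. The transcript 2310010J17Rik was at 3.58 and 3.78 TPM with IL-4 and at 26.0 and 10.8 TPM, so that both stiff libraries were at least 2-fold higher (1.93 over both, unadjusted p = 0.0036 and adjusted p = 0.586 in limma). Gbp2, a guanylate-binding protein induced by interferon, was at 139 and 146 TPM with IL-4 and at 21.9 TPM in WT stiff 1 against 114 TPM in WT stiff 2. Ifi202b differed by 3.41 over both stiff libraries, but with an adjusted p of 0.591 in limma, in a model where WT soft, KO soft and KO stiff each held 1 library at a low and 1 at a high level of it. Without the 3 libraries whose Camkk2 goes against the label, Ifi202b was the single gene called between the stiff and IL-4 libraries (log2 fold change 3.41, SE 0.135, limma adjusted p = 0.00326). Ifi202b divides the libraries as Camkk2 does, so leaving these 3 out by Camkk2 also took away the spread of Ifi202b within groups, and this call follows from that choice.

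KO cells were compared in the same way, to see whether the distance between the stiff gel and IL-4 was the same without CaMKK2, with the reservation that KO stiff 1 goes against its label in Camkk2. Of the genes tested, 117 were called higher (1.09%) and 57 lower (0.533%) in KO stiff than in KO soft+IL-4. The IL-4 and STAT6 list was on the low side, with 15 of 39 genes lower, 0 higher and a median of −1.31. On the high side were the Fc and paired immunoglobulin-like receptors, with 11 of 26 higher, 0 lower and a median of 0.923, and the Toll-like receptors and inflammatory cytokines, with 8 of 26 higher, 0 lower and a median of 0.67. No member of the hypoxia, cell cycle, glycolysis or sterol lists was called in the KO comparison. The KO stiff libraries also had 3 of 9 monocyte markers and 3 of 10 macrophage markers called higher, whose part in the other differences was not tested. The difference between the genotypes was tested as an interaction, with the WT difference less the KO difference. It called 14 genes above (0.131%) and 64 below (0.599%) zero, with 6 of the 39 IL-4 and STAT6 genes above and 7 of the 26 Fc and paired receptor genes below. The balance turned without WT stiff 2, to 468 genes above and 340 below. It was 44 above and 130 below without WT stiff 1, and leaving out any one of the 6 other libraries left 12 to 24 genes (12 without WT soft+IL-4 1, 20 without WT soft+IL-4 2, 16 without KO soft+IL-4 1, 13 without KO soft+IL-4 2, 18 without KO stiff 1 and 24 without KO stiff 2). In KO, Il4i1 had 382 and 374 TPM under IL-4 but 85.9 and 99.7 TPM on the stiff gel, whereas both WT stiff libraries were near their IL-4 level, and the interaction was 1.90 (limma adjusted p = 0.00474). It stayed past the threshold in all 8 fits that left out 1 of the libraries.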

How the data were processed

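RNA of 12 BMDM libraries, 2 in each of 6 groups taken from the labels, was sequenced after poly-A selection with strand-specific preparation. The authors deposited 1 table of TPM values, scaled to the same total in every library. The submitters' processing notes name Trim Galore 0.6.7, Salmon 1.4.0 and mm10, while the methods describe STAR and featureCounts, so the step that made the TPM values is not settled. TPM keeps no read counts: depth and counting error are unknown, and a gene at 0 is only listed at 0. Genes that reached 1 TPM in 2 or more of the 4 libraries compared were tested on log2(TPM + 1), which understates changes of low genes, with limma 3.58.1 (R 4.3.3): 1 mean per group over all 12 libraries, variance trend, Benjamini-Hochberg adjustment. Each stiff library was also fitted without the other (11 libraries). A call required an adjusted p below 0.05 together with a 2-fold difference (1 on the log2 scale). Lists are described by counts and medians, without a test. Genes named were Camkk2, the 10 largest called differences in each direction, the 6 highest and 6 lowest uncalled ones and genes the study discusses. List members called were named too or, where none was called, the 4 with the highest TPM. Eif3j2, Gbp2b, Ifi44 and Pet117 were chosen, beside this rule, after their values were seen. Il4i1 and Irf4, both described for the interaction, and Ifi44l were also named outside the rule. Cx3cr1 and Slc40a1 meet the rule as list members called, and were picked for the interaction after their values were seen. The members and lists were chosen with earlier results of these data known. Promoters are those of RefSeq on GRCm38.p6, the first listed for each gene. The code was tested on simulated data.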

Additional observations from a re-analysis of the deposited data

Results flagged for a closer look

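Of the genes named, 6 had a difference between stiff and IL-4 that itself differed between WT and KO by the interaction in limma (WT difference less KO difference, on the log2 scale). KO stiff 1 goes against its label in Camkk2, so WT and KO here are the labels and not the measured Camkk2. Il4i1 (1.899, adjusted p = 0.00474), Irf4 (1.416, adjusted p = 0.00924) and Itgb3 (1.525, adjusted p = 0.0182), all induced by IL-4, were near their IL-4 level in both WT stiff libraries and lower than it in both KO stiff libraries. The fractalkine receptor gene Cx3cr1 (−3.573, adjusted p = 0.0222), the monocyte membrane gene Ms4a4c (−2.991, adjusted p = 0.0187) and the iron exporter gene Slc40a1 (−2.733, adjusted p = 0.0252), which IL-4 lowers, were low in both WT stiff libraries and higher in both KO stiff libraries than with IL-4. In KO, Cx3cr1 had 0.474 and 0.644 TPM under IL-4 but 18.4 and 22.7 TPM on the stiff gel. In WT it had 1.60 and 1.52 TPM under IL-4, 4.17 TPM in WT stiff 1 and 0.700 TPM in WT stiff 2. WT stiff 1 was thus above both WT IL-4 libraries in Cx3cr1, and WT stiff 2 was below them. With each of 8 libraries left out in turn, Il4i1 stayed past the threshold in all 8 fits, Irf4 in 4, and Itgb3, Cx3cr1, Ms4a4c and Slc40a1 in 2, which were those without WT stiff 1 and without WT stiff 2. The values ran from 1.707 to 2.091 for Il4i1, 1.28 to 1.552 for Irf4, 1.432 to 1.618 for Itgb3, −4.375 to −2.77 for Cx3cr1, −3.602 to −2.381 for Ms4a4c and −3.34 to −2.126 for Slc40a1, without a change of direction. The call of Slc40a1 was also lost at a pseudocount of 0.1 (−3.516, adjusted p = 0.0561).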

How the results depend on the processing

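Without WT stiff 2, 879 genes were called between stiff and IL-4, while the fits without WT stiff 1, WT soft+IL-4 1 or WT soft+IL-4 2 gave 0; 1 gene was called without the 3 libraries whose Camkk2 goes against the label. Models of only the 4 libraries or the 6 WT libraries called 0 genes, with 69 and 111 at an unadjusted p under 0.05. For WT stiff 1, 192 of the 879 passed at 4-fold (2 on the log2 scale), and 737 and 893 were called with either IL-4 library left out. For WT stiff 2, leaving out an IL-4 library gave 0 and 1 genes and leaving out the 3 libraries gave 4. At a log2 fold change of at least 2, IL-4 against soft gave 81 genes, stiff against soft 101, KO stiff against KO IL-4 21 and the interaction 19; at an adjusted p under 0.1 the interaction gave 123. Only the 6 WT libraries gave 215 genes for IL-4 against soft and 217 for stiff against soft; only the 4 libraries compared gave 25 for stiff against soft and 275 for KO. Leaving out 1 library gave 236 to 300 for IL-4 against soft, 264 to 1027 for stiff against soft (1027 without WT stiff 2), 65 to 94 for KO and 12 to 808 for the interaction (808 without WT stiff 2). The causes were not tested beyond the libraries and thresholds named.

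Of the 37 genes followed for both stiff libraries, 15 changed direction without WT stiff 1. Their log2 differences, without WT stiff 1 and then without WT stiff 2, were −1.20 and 6.46 for Arg1, 0.014 and −2.88 for Ass1, −0.36 and 3.92 for Bnip3, −0.20 and 2.00 for Chil3, 0.092 and −2.87 for Efr3b, −0.14 and 4.94 for Egln3, −0.20 and 3.99 for Ero1l, −0.11 and 2.13 for Fn1, −0.24 and 3.93 for Id3, 0.47 and −3.21 for Isg15, 0.030 and −4.15 for Lpl, 0.15 and −4.25 for Mt3, 0.011 and −2.84 for Rtp4, −0.51 and 4.35 for Thbs1 and −0.32 and 4.73 for Tppp3. For WT stiff 1, Camk1 was −0.090 under median-of-ratios scaling, −0.042 without WT soft+IL-4 2 and 0.109 without WT soft+IL-4 1, and Ccl17 was −0.19 with the replicate block.

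With the replicate number as a block (replicate block), 0, 975 and 0 genes were called for both stiff libraries, WT stiff 1 and WT stiff 2 against IL-4, and Chil3 (1.60, adjusted p = 0.0333) and H2-Q9 (4.02, adjusted p = 0.0315) were then called in WT stiff 1. Deviations of same-numbered WT soft+IL-4 and WT stiff libraries correlated at 0.102. Of the 15 pairs of groups, 5 were above 0.1 and 10 were not. The highest were between KO soft, KO stiff and WT soft (0.338 to 0.357). In these groups library 1 was in the set with high Camkk2 and library 2 in the set with low Camkk2. Whether that division had a part in the correlations was not tested. By the rule that every pair exceed 0.1, the numbers were not taken to pair the libraries.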

Other observations

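Beside the genes described above, 3 genes passed the test for WT stiff 2 against IL-4 once the 3 libraries whose Camkk2 goes against the label were left out, in addition to Ifi202b (3.27, SE 0.114, limma adjusted p = 0.000274). Gbp2b, a guanylate-binding protein gene, was at 2.00 and 1.78 TPM with IL-4 and at 3.61 TPM in WT stiff 1 against 12.8 TPM in WT stiff 2 (2.26, limma adjusted p = 0.00748). Gbp2b was between 16.3 and 37.9 TPM in WT soft 2, KO soft 2, both KO soft+IL-4 libraries and KO stiff 2 and at 0.948 TPM or less in WT soft 1, KO soft 1 and KO stiff 1, the same division of the libraries as for Ifi202b and Camkk2, by which the 3 libraries were chosen, so the calls of Gbp2b and Ifi202b follow from that choice. Ifi44, an interferon-stimulated gene, was at 5.17 and 4.72 TPM with IL-4 and at 0.791 TPM in WT stiff 1 against 15.0 TPM in WT stiff 2 (1.43, limma adjusted p = 0.0177), and its levels in the other 8 libraries followed the same division, at 5.83 to 7.78 TPM in the 3 with low Gbp2b and 34.9 to 77.6 TPM in the 5 with high Gbp2b. Eif3j2, a translation factor gene with a close copy, was at 31.5 and 19.1 TPM with IL-4, at 28.9 TPM in WT stiff 1 and listed at 0 in WT stiff 2 (−4.68, limma adjusted p = 0.00748). Pet117, a mitochondrial assembly gene, was the single gene called for WT stiff 2 without WT soft+IL-4 2 (4.73, limma adjusted p = 0.00242), with 0 and 28 TPM in the IL-4 libraries, in that order, and 3.68 and 25.5 TPM in the stiff ones. These 4 genes were named after their values were seen.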
